A study of Mus musculus with 54 samples.

Results

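T cells of the adult mouse kidney were described from 1263 barcodes, which are 1.63% of the 77656 barcodes of 27 single-cell RNA-seq libraries. A barcode was taken as a T cell where at least 2 of the 5 genes Cd3d, Cd3e, Cd3g, Trac and Trbc2 had a unique molecular identifier (UMI, a tag that marks 1 captured transcript), and where Cd79a of B cells, C1qa of macrophages and Pecam1 of endothelial cells had none. The cells were thus chosen by the UMI counts of these genes, which are given within the selected barcodes as a description with no test. The study asked how dissociation and storage of kidney suspensions change what single-cell RNA-seq measures. Each group held 3 libraries, from 3 kidneys of 3 mice. Male AFAPIL.1DEL C57BL/6J littermates aged 19 weeks, which had been in no experimental procedure, gave kidneys for warm dissociation at 37 °C with a commercial enzyme kit and for cold dissociation on ice with a protease of Bacillus licheniformis. Aliquots of these suspensions were profiled fresh, after cryopreservation for 6 weeks or after methanol fixation and storage for 3 months, all with 10x chemistry version 2. Untreated male Balb/c littermates aged 18 weeks gave cold-dissociated fresh cells with chemistry version 2. Female wild type Balb/c mice aged 15 weeks, which had served as breeders, gave cold-dissociated cells with chemistry version 3, fresh and after cryopreservation for 2 weeks. Strain, age, experiment and, for the females, sex and chemistry cannot be told apart between the C57BL/6J and the Balb/c groups. Bulk RNA-seq of C57BL/6J warm and cold suspensions and of female Balb/c suspensions and intact kidneys was used as an assay that the choice of barcodes did not touch.

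T cells recognize antigen through a receptor whose constant parts are encoded by Trac and by Trbc1 or Trbc2, and which signals through the CD3 chains. The kinases Lck and Zap70 and the adaptor Lat carry the signal on, and Cd28 gives a second, costimulatory signal. In a healthy kidney T cells are few among tubule and endothelial cells, and they include naive, recirculating cells as well as effector, memory and resident cells with cytotoxic genes such as Ccl5 and Nkg7. Stimulation of a T cell and cell stress both switch on immediate-early transcription factors of the Fos, Jun and Nr4a families within minutes. Heat shock genes encode chaperones that are induced by heat and by misfolded protein.

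The label was checked against T cell genes that had no part in the choice. The reference was proximal tubule barcodes or the rest of the library, and no NK cell gene was an exclusion gene. The check therefore does not separate T from NK cells. Trbc1, the alternative beta chain constant gene, was detected in 42.1% of the T barcodes, against a median of 0.067% of the barcodes with proximal tubule markers. Lat was detected in 44.7% (0.140% of tubule barcodes) and Lck in 42.0% (0.070%). The median depth was 1349 UMIs in T barcodes and 2639 UMIs in tubule barcodes, so depth did not favour the T barcodes. Trbc1, Lat and Lck were each at a higher level relative to all UMIs in the T barcodes than in the rest of the library in 24 of the 24 libraries that listed them, and Cd2, an adhesion receptor of T and NK cells, was higher in 25 of 25. Skap1, an adaptor of T cell adhesion, was detected in 34.0% and Cd247, the CD3 zeta chain, in 13.6%, and Cd28 in 29.3% of the 1168 T barcodes of the 23 libraries whose tables name it. Cd247 was listed above 0 in 17 of 25 libraries and Cd28 in 18 of 23, so that these rates can be too low. Among genes of other cells, Cd74 of class II antigen presentation was found in 19.6% of the T barcodes, H2-Ab1 in 11.2%, Apoe in 8.71% and Klrb1c, an NK cell receptor, in 2.1% of those in the 17 libraries with T barcodes whose tables name it, 5 of which list it above 0, against medians of 27.0, 15.7, 30.1 and 0% of tubule barcodes. Cd79b, which goes with the excluded Cd79a, was found in 1.03% of the T barcodes, C1qb, which goes with the excluded C1qa, in 2.38% and Adgre1 in none, while Ighm, an immunoglobulin heavy chain, was found in 14.2% (0.553% of tubule barcodes) and was higher in the T barcodes than in the rest of the library in 18 of 25 libraries. Transcripts of the proximal tubule were widespread at a low level: Gpx3 had a UMI in 59.5% and Kap, an androgen-regulated protein of the tubule, in 42.2% of the T barcodes. The T barcodes held exactly 2, 3, 4 or all 5 of the rule's genes in 281, 427, 351 and 204 cases. Just outside the rule were 753 barcodes with 1 of the genes, and 93 barcodes were left out because they held a UMI of an exclusion gene. Only 28 of 19596 proximal tubule barcodes (0.143%) held 2 or more of the rule's genes. Of the T barcodes, 27 also met the tubule marker set, 7 of them in the second warm fresh library and 7 in the third cold fresh library of C57BL/6J, and none met the B cell marker set.

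The authors left out genes found in fewer than 10 barcodes of a library and filtered barcodes as well, and some listed genes have fewer than 10 barcodes in the deposited tables. A gene can be listed at 0 although up to 9 barcodes held it. A call of a gene that a group lists at 0 rests on this filter too, since its level there is not known. For the rule's genes this bears on 3 libraries. In the third male Balb/c library all 5 of the rule's genes were listed at 0, and in the third warm methanol-fixed library 4 of them were, and neither yielded a T barcode. The first warm methanol-fixed library had Cd3d and Cd3e listed at 0. Libraries held 782 to 7928 barcodes and 983522 to 27869324 UMIs, and T barcodes numbered 12 to 108 in the 25 libraries that had any. Median UMIs per T barcode were 360.5 to 432 in male Balb/c, 853 to 2368 in C57BL/6J and 1846 to 3028.5 in female Balb/c. Of 75431 distinct barcode sequences 2089 occurred in more than 1 library, but none was a T barcode in more than 1 library. No caller for doublets (2 cells under 1 barcode) was run, and the exclusion genes were the only step against them.

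T barcodes made up a larger share of the cryopreserved libraries than of the fresh libraries, in each of 3 comparisons, with no overlap between the groups. In cold-dissociated C57BL/6J kidneys the share was 0.976, 1.98 and 1.77% fresh and 6.80, 6.63 and 6.95% after cryopreservation. The difference was 5.22 percentage points (1.58 ± 0.531% against 6.79 ± 0.160%, SD, n = 3 each, exact two-sided permutation test, p = 0.1). With 3 libraries against 3 this is the smallest p the test can give. In warm-dissociated kidneys the share was 1.04, 0.887 and 1.25% fresh and 3.98, 5.50 and 7.65% cryopreserved, a difference of 4.65 points (exact permutation p = 0.1). In female Balb/c it was 0.803, 0.845 and 0.861% fresh and 2.92, 2.79 and 2.86% cryopreserved, a difference of 2.02 points (exact permutation p = 0.1). With barcodes thinned to 500 UMIs each, leaving out those with fewer, the differences were 3.85 (cold), 3.03 (warm) and 1.21 points (female Balb/c), again with no overlap. These shares were taken over all barcodes, and the cryopreserved libraries held fewer tubule barcodes. Proximal tubule barcodes numbered 769 to 2293 in fresh and 0 to 2 in cryopreserved C57BL/6J libraries, and 1451 to 2861 against 63 to 115 in female Balb/c. Among barcodes with T, B, NK or macrophage markers alone, T barcodes made up 17.8% of cold fresh and 19.8% of cold cryopreserved libraries (difference 2.08 points, exact permutation p = 0.5). The same share was 17.3 and 24.2% in warm libraries (6.85 points, p = 0.2 by the same exact test) and 17.5 and 18.9% in female Balb/c (1.37 points, exact p = 0.6). NK barcodes hardly entered these shares, at 0 in every cryopreserved library and at most 14 in a fresh one. NK cell genes were often listed at 0, and Ncr1 was above 0 in 10 of 25 libraries. With at least 3 of the rule's genes the warm difference was 2.84 and the cold one 0.462 points, and with thinned barcodes the warm difference was 2.87 points. Without the first cold fresh library the C57BL/6J cold difference was -0.193 points, and without the third fresh library the female Balb/c difference was -0.177 points.

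In the other comparisons the groups overlapped in the share of T barcodes by the rule as given, except for warm methanol-fixed against warm fresh libraries. Warm fresh libraries held 1.06 ± 0.184% and cold fresh libraries 1.58 ± 0.531% T barcodes (difference -0.519 points, exact permutation p = 0.3). Cold methanol-fixed libraries held 1.11, 1.22 and 0.750% (-0.550 points against fresh, exact permutation p = 0.3). The warm methanol-fixed libraries held 0.827, 0.755 and 0%, below the warm fresh libraries (-0.532 points, exact permutation p = 0.1). The library at 0 could hold up to 22 T barcodes under the deposited filter, or 2.81%, and at that bound the difference was 0.406 points in the other direction. Male Balb/c libraries held 2.27, 1.25 and 0% (-0.403 points against C57BL/6J, exact permutation p = 0.7), and without the library at 0, which could hold up to 0.615%, the difference was 0.184 points. Warm and cold cryopreserved libraries differed by -1.08 points (exact permutation p = 0.4) and warm and cold methanol-fixed libraries by -0.500 points (p = 0.3 by the same exact test). Some of these groups were apart under another count of T barcodes, each at an exact permutation p of 0.1. With at least 3 of the rule's genes warm and cold cryopreserved libraries differed by -1.32 points and warm and cold methanol-fixed libraries by -0.551 points, and with barcodes thinned to 500 UMIs the latter differed by -0.574 points and male Balb/c from C57BL/6J libraries by -0.765 points. Both methanol-fixed values count the third warm library as 0, and at its upper bound the difference of -0.500 points became 0.437 points. The male Balb/c libraries kept 1363 of 2467, 2110 of 3109 and 549 of 3577 barcodes at that depth. Thinning left -0.251 points for warm against cold fresh and -0.174 points for methanol-fixed against fresh cold libraries.

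**Figure D1:**
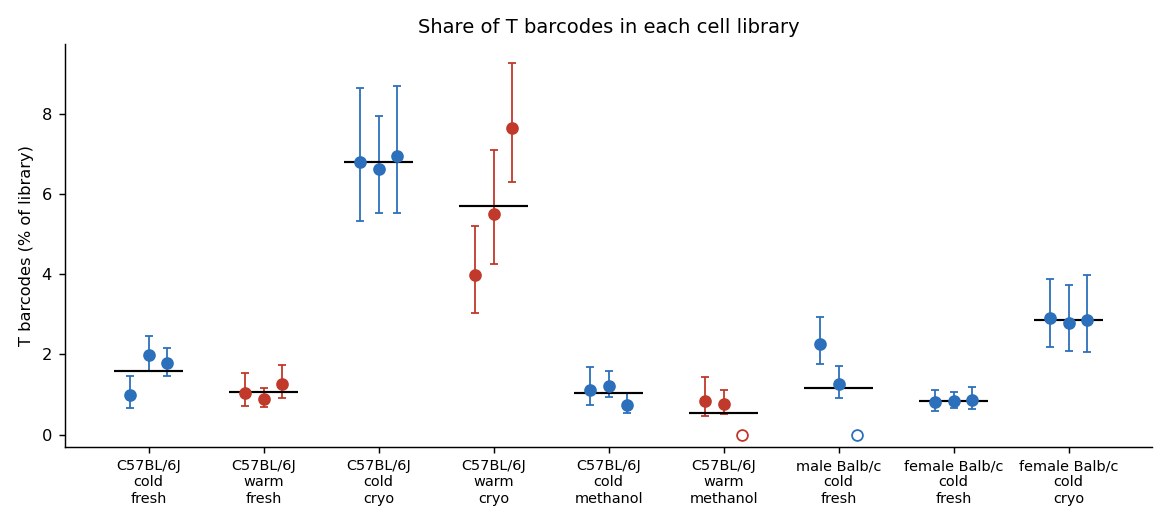
Share of T barcodes among all barcodes (%) in each of the 27 libraries by group, with 95% Wilson intervals (counting error only) and a line at the group mean. Open points, drawn without an interval, are libraries with no T barcode, in which 4 or 5 rule genes were listed at 0. The first warm methanol-fixed library, with Cd3d and Cd3e listed at 0, is drawn filled. The cold cryopreserved C57BL/6J libraries lie at 6.63 to 6.95% and the cold fresh ones at 0.976 to 1.98%.

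Genes of the cytotoxic and effector list ranged widely in level. Ccl5, a chemokine of cytotoxic and memory T cells, was at 2004 to 5693 CPM (UMIs of a gene per 1e6 UMIs of the T barcodes of a library) in cold fresh C57BL/6J T barcodes and detected in 44.8 to 65.2% of them. Nkg7, a protein of cytotoxic granules, was at 1106 to 1392 CPM in the same libraries. Ctsw was at 215 to 475 CPM, Xcl1 at 241 to 357 CPM and Gzma at 0 to 231 CPM, while Gzmb and Ifng were listed at 0 in all 3 libraries and Ccl3 had no UMI. Gzma had a UMI in 1.52% of the T barcodes of the 23 libraries with T barcodes whose tables name it, 14 of which list it above 0. Among genes of naive and memory cells, Klf2, a factor of naive T cells, was at 265 to 614 CPM, while Ccr7, the lymph node homing receptor, was at 31.2 to 67.9 CPM and Cd44, an adhesion receptor of memory cells, at 50.9 to 55.8 CPM. Il7r was listed at 0 in 1 of the 3 libraries and reached 207 CPM in another. In female Balb/c fresh T barcodes, which were sequenced with the newer chemistry, Ccl5 was at 1083 to 3079 CPM, Nkg7 at 638 to 750 CPM and Il7r at 173 to 279 CPM. Foxp3 of regulatory T cells and Trdc of gamma-delta T cells were listed above 0 in no library, so neither cell type could be followed.

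CD8 genes could be followed in 13 libraries and Cd4 in 9. In the 13 libraries that listed both Cd8a and Cd8b1, 199 of 859 T barcodes (23.2%, 16.2 to 27.7% by library) had a UMI of either, against 16 of 11589 proximal tubule barcodes (0.138%). A library lists a gene only where enough of its barcodes held it. The 13 libraries were thus kept through their CD8 counts, and the share can be too high for T barcodes as a whole. Median depths in these libraries were 997.5 to 2743 UMIs for T and 696.5 to 5853.5 UMIs for tubule barcodes. Cd4 was found in few barcodes: 47 had Cd4 and no CD8 gene, at most 10 in a library, and 1 barcode had Cd4 and a CD8 gene. In female Balb/c the CD8 share of barcodes with either lineage gene was 61.5 ± 16.2% fresh and 60.6 ± 23.6% cryopreserved (SD, n = 3 each). The third fresh and the second cryopreserved library, whose shares were lowest within their groups (50.0 and 33.3%), listed Cd8b1 at 0, and the third cryopreserved library listed Cd8a at 0, so that CD8 barcodes can be missed there. The difference of -0.960 points (exact permutation p = 1) took the other sign when the second fresh library was left out (8.28 points) or the second cryopreserved library was (12.7 points). Its direction was not resolved at these cell numbers.

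Warm dissociation was compared with cold dissociation in fresh T barcodes of C57BL/6J kidneys. Immediate-early, heat shock and feedback genes were higher in warm T barcodes, some of them from almost no UMIs in cold T barcodes. Of 14 receptor and signalling genes 1 was called and of 9 lineage transcription factors none, against 4.46% of all genes tested. These counts are near that share and do not show that the genes of these lists were unchanged. UMIs were summed over the T barcodes of each library and compared by edgeR's quasi-likelihood test across 1457 genes (Benjamini-Hochberg adjusted p under 0.05). Of these, 56 genes were higher and 9 lower in warm T barcodes, 4.46% of the genes tested (3.84% higher and 0.618% lower), with a median log2 fold change of -0.03 over all genes. The study's list of 17 stress genes was drawn up on these samples, so its direction is no independent evidence. The immediate-early, heat shock and feedback lists share members with it and were chosen with earlier results of these data known. Their counts are no independent evidence either. Of the 15 tested members of the study's list 14 were higher, with a median of 5.15 (2.74 with genes at 0 in a group set to their bound). Atf3 had 0, 53.7 and 44.4 CPM in warm and 0 in all cold libraries and was not called, and Hspb1 and Ier3 were not tested for lack of UMIs.

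The inducible Hsp70 genes had no UMI in cold T barcodes. Hspa1a, an inducible Hsp70 chaperone, had 73, 59 and 178 UMIs in the 3 warm libraries and 0 in the 3 cold ones, an at least 127-fold difference against a floor of 3 UMIs over the cold group (adjusted p = 0.000166, edgeR). Hspa1b, its near-identical neighbor with which it can share reads, had 6, 9 and 20 UMIs against 0, at least 14.3-fold higher (adjusted p = 0.0297). Neither gene was listed at 0 by the filter in cold libraries, so that other cells of these libraries held them. Dnajb1, the Hsp40 partner of Hsp70, was at 367, 176 and 1109.9 CPM in warm and 50.9, 15.9 and 54.5 CPM in cold T barcodes (log2 fold change 3.58, standard error 0.72, adjusted p = 0.00292). The constitutive chaperones moved less: Hspa8 was at 2711, 1496 and 2486 CPM in warm and 1104, 734 and 857 CPM in cold T barcodes (1.19, standard error 0.26, adjusted p = 0.00629). Hsp90aa1 (log2 fold change 1.76), Dnaja1 (1.66) and Hsp90ab1 (0.98) were higher too. In all, 7 of 11 tested heat shock genes were called higher and none lower, with a median log2 fold change of 1.19. Hspa5, the chaperone of the endoplasmic reticulum, and the mitochondrial Hspd1 and Hspe1 were not called.

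Of the immediate-early list, 13 of 14 tested genes were higher in warm T barcodes (median log2 fold change 5.29, 2.6 with genes at 0 set to their bound). Junb, an AP-1 subunit, was at 6855, 3230.0 and 5032 CPM in warm and 50.9, 191 and 101 CPM in cold T barcodes (log2 fold change 5.15, standard error 0.35, adjusted p = 1.05e-09). Fos, the AP-1 partner of Jun, was at 1067, 921 and 1006 CPM in warm libraries and 0, 23.9 and 7.79 CPM in cold libraries, 1 of which listed it at 0 (adjusted p = 6.19e-09). Every warm library lay above every cold library for both genes. Jun had 1 UMI in the cold group, and the ratio of warm to cold was 265 (95% counting interval 47.0 to 10506) (adjusted p = 6.07e-08). Jund (2606, 1396 and 2131 against 339.6, 391 and 273 CPM) and Ier2 (455, 407 and 755 against 84.9, 55.8 and 77.9 CPM) had a cold level well above 0 and were also higher, at log2 fold changes of 2.45 and 2.74. The orphan nuclear receptor Nr4a1, which antigen receptor signals induce, was at 349.8, 176 and 429 CPM in warm and 0, 0 and 7.79 CPM in cold T barcodes. Fosb at 192, 199 and 207 CPM and Nr4a2 at 209.9, 92.1 and 163 CPM in warm T barcodes were listed at 0 in all cold libraries, and no fold is given for them. Crem, a cAMP-responsive factor, had 0 UMIs in cold T barcodes without being listed at 0 and was at least 7.76-fold higher in warm T barcodes. Klf6 (log2 fold change 3.37), Ier5 (2.19) and Klf2 (1.60) were higher too. Egr1, a zinc finger factor, was at 35.0, 123 and 118 CPM in warm T barcodes and had no UMI in cold ones, 1 of which listed it at 0 (adjusted p = 0.00295).

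Promoters are shown for Hspa1a, Jun and Fosb, the called heat shock and immediate-early genes with the largest fitted log2 fold changes. These fitted values have no fixed size. Hspa1a had 0 and Jun 1 UMI in the cold group, and Fosb was listed at 0 in all cold libraries. The promoters are RefSeq sequences on GRCm38.p6, from 250 bases before to 50 after the gene's start, 5′ to 3′ on the gene's strand. Capitals mark matches, on either strand, to GAANNTTC or TTCNNGAA (a pair of heat shock element units), to TGACNTCA (a CRE-like site) and to CCAAT.
Hspa1a: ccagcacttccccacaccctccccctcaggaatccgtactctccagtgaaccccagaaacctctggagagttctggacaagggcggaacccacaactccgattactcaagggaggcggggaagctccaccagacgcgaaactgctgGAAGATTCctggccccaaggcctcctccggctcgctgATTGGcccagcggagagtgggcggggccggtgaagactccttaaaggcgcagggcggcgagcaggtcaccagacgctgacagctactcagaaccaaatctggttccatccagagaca
Jun: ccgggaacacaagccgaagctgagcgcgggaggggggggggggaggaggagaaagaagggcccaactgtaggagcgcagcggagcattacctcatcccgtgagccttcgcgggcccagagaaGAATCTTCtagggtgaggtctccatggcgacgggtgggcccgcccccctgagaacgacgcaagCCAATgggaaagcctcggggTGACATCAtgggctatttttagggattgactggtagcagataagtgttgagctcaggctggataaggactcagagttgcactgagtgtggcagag
Fosb: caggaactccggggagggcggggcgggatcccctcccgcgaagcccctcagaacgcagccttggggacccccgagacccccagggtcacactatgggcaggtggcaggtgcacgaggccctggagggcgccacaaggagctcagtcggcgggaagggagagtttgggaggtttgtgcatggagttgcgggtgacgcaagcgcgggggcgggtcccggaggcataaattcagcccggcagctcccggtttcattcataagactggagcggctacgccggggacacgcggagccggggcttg
Hspa1a lies at chr17:34972107-34972406, Jun at chr4:95052173-95052472 and Fosb at chr7:19309996-19310295, all on the minus strand. The Hspa1a window held a heat shock element pair at -104 to -97 from the start and CCAAT, read on the other strand, at -67 to -63. The Jun window held such a pair at -128 to -121, CCAAT at -65 to -61 and the CRE-like letters at -45 to -38. The Fosb window held none of these, and none of the windows held TGANTCA (AP-1) or TATAAA. Of 32851 RefSeq promoter windows of this length, 15.1% held the heat shock element pair, 8.83% the CRE-like letters, 37.4% CCAAT, 7.81% TGANTCA and 13.6% TATAAA. A match describes the letters and is not evidence of a bound site.

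Genes that end or limit such signals were higher together with them. Of 11 tested feedback regulators 9 were called higher (median log2 fold change 2.56). Dusp1, a phosphatase that switches off MAP kinases, was at 1172, 1120.2 and 1302 CPM in warm and 17, 7.97 and 15.6 CPM in cold T barcodes (log2 fold change 6.24, standard error 0.42, adjusted p = 1.05e-09). Dusp2 (2.51) and Dusp5 (4.12), 2 more such phosphatases, were higher, as were the RNA-destabilizing Zfp36 (3.5) and Zfp36l2 (2.54), the antiproliferative Btg1 (1.61) and Btg2 (2.95), and Rgs2 (4.12), all as log2 fold changes. Ppp1r15a, which restarts translation after stress, was at 385, 468 and 488 CPM in warm and 34.0, 15.9 and 0 CPM in cold T barcodes. Tnfaip3, the A20 brake on NF-kB, was at 349.8, 261 and 414 CPM in warm libraries against 0, 7.97 and 15.6 CPM, a ratio of 33.5 (95% counting interval 11.1 to 166). Nfkbia, the inhibitor that holds NF-kB in the cytoplasm, was at 349.8, 399 and 399.6 CPM in warm and 153, 167 and 179 CPM in cold T barcodes (log2 fold change 1.06, standard error 0.28, adjusted p = 0.0307). Vps37b, a subunit of the ESCRT-I sorting complex, was at 665, 560.1 and 725 CPM in warm and 34.0, 39.9 and 15.6 CPM in cold T barcodes.

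Of 12 tested effector memory and resident genes 3 were called higher in warm T barcodes (median log2 fold change -0.22), and of 12 cytotoxic and effector genes 2 (median 0.018). Cd69, the early activation and retention receptor, was at 332, 269 and 429 CPM in warm and 84.9, 15.9 and 23.4 CPM in cold T barcodes (log2 fold change 3.16, standard error 0.45, adjusted p = 5.49e-05). Cd28 was at 857, 598 and 799 CPM in warm and 255, 183 and 117 CPM in cold T barcodes (1.94, standard error 0.27, adjusted p = 8.84e-05), the only one of 14 tested receptor and signalling genes that was called. Bhlhe40, a factor of activated and resident T cells, was higher at a log2 fold change of 2.66 and Rgs1 at 2.29. The cytokine gene Ccl3 was at 612, 15.3 and 118 CPM in warm libraries and listed or counted at 0 in cold ones. Ifng was at 577, 76.7 and 0 CPM in warm libraries, listed at 0 in the third of them and in all cold libraries, so that the groups overlapped although the gene was called. Ccl4 was at 1836, 368 and 1199 CPM in warm and 0, 574 and 7.79 CPM in cold T barcodes, with 1 cold library above 1 warm library, and was not called (2.16, standard error 0.84, adjusted p = 0.228). Ccl5, Nkg7, Cd8a and Cd8b1 were not called, nor were any of 9 lineage transcription factors, 12 class I antigen presentation genes or 7 interferon response genes that were tested. With 4.46% of all genes called, this does not show that these genes were unchanged. The rule's own genes had log2 fold changes of -0.47 (Cd3g) to 0.07 (Cd3e).

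Actb and Pfn1 of the actin skeleton and Cbx3, a heterochromatin protein, were lower in warm T barcodes, and so were all 4 hemoglobin genes. Actb was at 7607, 4987 and 6023 CPM in warm and 11733, 9528 and 15845 CPM in cold T barcodes (log2 fold change -1.14, standard error 0.32, adjusted p = 0.0392). Hba-a1 was at 209.9, 184 and 311 CPM in warm and 628, 2193 and 2501 CPM in cold T barcodes (-3.13, standard error 0.45, adjusted p = 5.85e-05), although T cells do not make hemoglobin. Summed hemoglobin genes took 0.336 to 0.982% of the UMIs of cold and 0.068 to 0.212% of the UMIs of warm T barcodes, and their part in the other results was not tested. Summed tubule transcripts took 0.526 to 1.33% in cold and 0.621 to 2.6% in warm T barcodes, and 0 of 20 tested tubule genes were called. Of 47 called genes named for this comparison, 35 stayed called in each of 6 fits that left out 1 library. Hspa8 lost its call without the second cold fresh library (adjusted p = 0.0517) and Klf2 without the third (adjusted p = 0.0715, edgeR). Hspa1b, Hsp90ab1, Nfkbia, Ccl3, Ifng, Rgs1, Actb, Pfn1, Cbx3 and Hbb-bt lost theirs in 2 to 5 of the 6 fits, with highest adjusted p values of 0.0661 to 0.262. Actb was also not called with RLE size factors, in DESeq2, with at least 3 of the rule's genes, without T barcodes that also met the tubule marker set or with only the libraries of these groups. Rgs1 was not called in DESeq2 or with only those libraries (adjusted p up to 0.465), nor was Hbb-bs, Nfkbia not with those libraries or without a filter on low counts, Hsp90ab1 not without that filter, and Hbb-bt not with at least 3 of the rule's genes. Pfn1 was not called with at least 3 of the rule's genes, without the tubule-marked barcodes, with only the libraries of these groups or without a filter on low counts (adjusted p up to 0.663), and Cbx3 not in DESeq2, without that filter or with only the libraries of these groups.

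**Figure D2:**
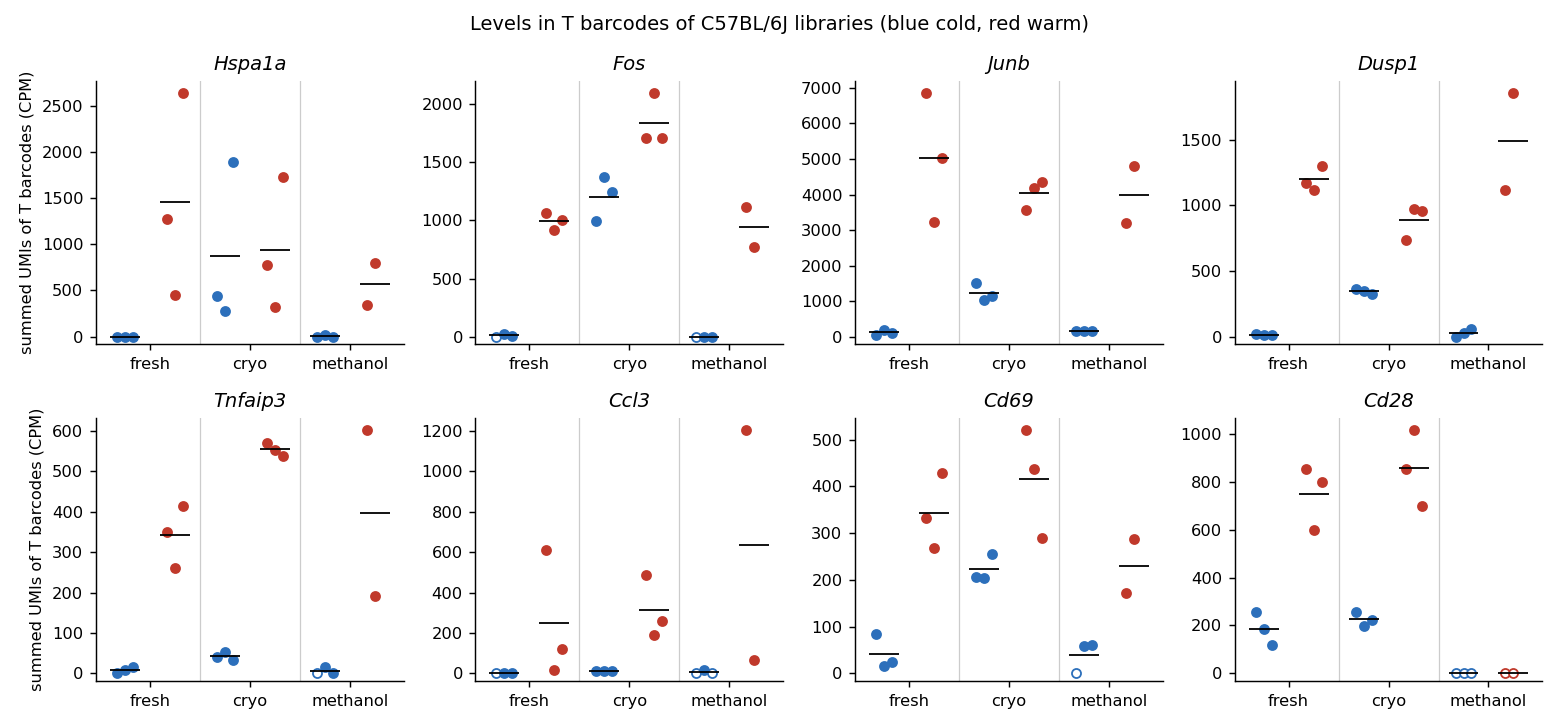
Levels (CPM of the summed T barcodes) of Hspa1a, Fos, Junb, Dusp1, Tnfaip3, Ccl3, Cd69 and Cd28 in each C57BL/6J library with T barcodes, cold in blue and warm in red, fresh, cryopreserved and methanol-fixed. Lines are group means and open points are libraries in which the gene was listed at 0. Dusp1 lies at 1120 to 1302 CPM in warm fresh and at 7.97 to 17 CPM in cold fresh T barcodes.

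B cells of the same libraries gave a reference for whether these changes were particular to T cells. In barcodes with B cell markers 38 of 820 tested genes were higher and 11 lower in warm libraries (5.98% called, 4.63% higher and 1.34% lower). Fos was at 1664, 1029 and 1121 CPM in warm and 0, 6.55 and 12.8 CPM in cold B barcodes, Dusp1 at 362, 225 and 512 against 26.0, 13.1 and 12.8 CPM and Cd69 at 555, 217 and 448 against 90.9, 118 and 89.6 CPM. The difference between the warm responses of T and B barcodes was tested as an interaction within the 6 libraries. No gene of 1210 passed an adjusted p of 0.05 in edgeR (51 at an unadjusted p under 0.05) or in DESeq2, and with no filter on low counts 5 genes did. A p that misses the threshold does not show that T and B barcodes responded alike. NK barcodes were too few for the same test.

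Bulk RNA-seq of the warm and cold suspensions was compared without a choice of cells. Fewer cells of a type and less RNA per cell cannot be told apart in bulk libraries. Of 14102 genes tested 764 were higher and 460 lower in warm suspensions (8.68% called, 5.42% higher and 3.26% lower). Cd69 was at 7.01, 8.25 and 5.89 CPM in warm and 0.733, 2.51 and 1.75 CPM in cold suspensions (log2 fold change 2.12, standard error 0.33, adjusted p = 0.00188), with no overlap. Ccl4 was at 7.27, 5.06 and 3.75 CPM in warm and 0.367, 0.335 and 0.159 CPM in cold suspensions (4.09, standard error 0.45, adjusted p = 0.000141), although it was not called in fresh T barcodes, and Ccl3 at 3.63, 1.45 and 3.08 against 0.489, 0.168 and 0 CPM. Cd28 was higher in warm suspensions by a smaller amount (log2 fold change 1.17, standard error 0.28, adjusted p = 0.0221) and lost its call in 4 of 6 fits that left out a library (highest adjusted p = 0.0774, edgeR). Other cells make Ccl3, Ccl4 and Cd69 too. Ptprc, the CD45 of all leukocytes, was at 64.6, 65.3 and 51.0 CPM in warm and 84.4, 101 and 96.1 CPM in cold suspensions (-0.66, standard error 0.11, adjusted p = 0.00208). Of 10 B cell markers 9 were lower in warm suspensions and of 10 macrophage markers 5. Cd3d, Cd3e, Trac and Trbc2 were at 0.579 to 3.79 CPM, with log2 fold changes of -0.64 to -0.05 and overlapping groups, and none was called.

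Cryopreserved T barcodes of cold-dissociated kidneys were compared with fresh ones next. Most tested stress genes were higher after cryopreservation, and hemoglobin and most tubule transcripts were lower. Of 1457 genes 67 were higher and 58 lower (8.58% called, 4.60% higher, median log2 fold change -0.14 over all genes). DESeq2 gave 95 higher and 53 lower genes. Fos was at 992, 1377 and 1245 CPM in cryopreserved and 0, 23.9 and 7.79 CPM in fresh T barcodes, Egr1 at 207, 336 and 333 CPM with no UMI in fresh T barcodes, and Junb at 1519, 1034 and 1145 against 50.9, 191 and 101 CPM (log2 fold change 3.22, standard error 0.34, adjusted p = 8.87e-07). The cryopreserved and fresh libraries did not overlap for any of the 3. Hspa1a had 42, 42 and 170 UMIs against 0, at least 78.2-fold higher, Hspa1b was at least 23.4-fold higher, and Jun had a ratio of 195 (95% counting interval 34.6 to 7733). Dnajb1 was at 424, 533 and 1156 CPM in cryopreserved and 50.9, 15.9 and 54.5 CPM in fresh T barcodes (log2 fold change 4.07, standard error 0.70, adjusted p = 0.000614). Of the study's 15 tested stress genes 13 were higher (median 4.53, 2.41 with genes at 0 at their bound), of 14 immediate-early genes 11, of 11 heat shock genes 7 and of 11 feedback regulators 8. The cold fresh libraries are those of the comparison with warm dissociation, on which the study's list was drawn up. Dusp1 was at 362, 349 and 322 CPM and Ppp1r15a at 413, 257 and 500.2 CPM in cryopreserved T barcodes, against 17, 7.97 and 15.6 and 34.0, 15.9 and 0 CPM fresh. Gadd45b, a stress sensor of MAP kinase signalling, was at 248, 191 and 200.1 against 0, 7.97 and 23.4 CPM. Cd69 was higher (207, 204 and 256 against 84.9, 15.9 and 23.4 CPM, 2.63, standard error 0.46, adjusted p = 0.000666), and no receptor or signalling gene of 14 was called. With 8.58% of all genes called, this does not show that those 14 genes were unchanged.

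Of 20 tubule transcripts 16 were lower in cryopreserved T barcodes (median log2 fold change -4.51, -3.81 with genes at 0 at their bound) and all 4 hemoglobin genes were. Gpx3 was at 134, 178 and 222 CPM in cryopreserved and 2021, 2432 and 4658 CPM in fresh T barcodes (log2 fold change -4.16, standard error 0.41, adjusted p = 3.92e-07), and Kap, a protein of the proximal tubule, at 103, 92.2 and 66.7 against 475, 933 and 1122 CPM. Summed tubule transcripts took 0.068 to 0.123% of the UMIs of cryopreserved and 0.526 to 1.33% of the UMIs of fresh T barcodes, and 0.224 to 0.682% and 4.56 to 7.28% of the UMIs of all barcodes in the cryopreserved and fresh libraries. T barcodes that also met the tubule marker set numbered 0, 1 and 7 in the fresh and 0 in each of the cryopreserved libraries. The source of the tubule RNA in T barcodes was not tested. Of mitochondrial genes, mt-Atp8 was higher (951, 962 and 834 against 475, 375 and 327 CPM, 1.21, standard error 0.29, adjusted p = 0.011) and mt-Atp6 lower (-0.87). Ndufb8, a nuclear-encoded subunit of complex I, was lower at a log2 fold change of -1.25. Ifng at 269, 92.2 and 145 CPM and Fosb at 475, 520.3 and 333 CPM in cryopreserved T barcodes were listed at 0 in all fresh libraries. Gzma, at 0, 231 and 23.4 CPM fresh, was listed at 0 in all cryopreserved libraries. Of 26 called genes named here 18 stayed called in each of 6 fits without 1 library, and Atf3, Ifng, Nfkbia, Kap, Gzma, mt-Atp6, mt-Atp8 and Ndufb8 did not (highest adjusted p 0.0559 to 0.329). mt-Atp6 was also not called without a filter on low counts, with at least 3 of the rule's genes, without T barcodes that met the tubule marker set or with only the libraries of these groups, Nfkbia and Ndufb8 not without that filter and Gzma not in DESeq2. The count of calls was 55 without the third and 80 without the second fresh library, and 71 and 69 without the second and the third cryopreserved libraries.

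After cryopreservation of warm-dissociated cells few stress genes were called, and tubule and hemoglobin transcripts were lower. Of 1457 genes 40 were higher and 93 lower (9.13% called, 2.75% higher and 6.38% lower, median log2 fold change -0.17). With RLE size factors the median was -0.01 and the split 83 higher and 73 lower, and DESeq2 gave 81 higher and 62 lower. Only Fos and Fosb of the 15 stress genes were higher. Fos was at 1713, 2096 and 1707 CPM in cryopreserved and 1067, 921 and 1006 CPM in fresh warm T barcodes (log2 fold change 0.97, standard error 0.25, adjusted p = 0.0188), and Fosb at 722, 699 and 429 against 192, 199 and 207 CPM (1.66, standard error 0.29, adjusted p = 0.00291). Nfkbia (924, 888 and 1068 against 349.8, 399 and 399.6 CPM), Gadd45b (log2 fold change 1.88), Rgs2 (1.17) and the chaperones Hsp90aa1 (0.86) and Hspa5 (1.16) were higher too. Gm10076, which resembles a ribosomal protein gene and can share its reads, was at 3645, 4949.6 and 3763 CPM in cryopreserved and 682, 644 and 977 CPM in fresh T barcodes. Among the lower genes were 17 of 20 tubule transcripts, 3 of 4 hemoglobin genes, the chemokine receptor Ccr2 (-1.99) and Ighm (-1.28). Ccr2 and Ighm were not called with RLE size factors, in DESeq2, without a filter on low counts, with at least 3 of the rule's genes or without the tubule-marked barcodes, and Fos, Hsp90aa1 and Rgs2 not without that filter. Hspa5 was not called with at least 3 of the rule's genes, and Hsp90aa1 and Rgs2 not with only the libraries of these groups. Of 11 called genes named here 6 lost the call in at least 1 fit without 1 library. Hsp90aa1 and Ighm lost it in 5 of 6 fits, Hspa5 in 4 of 6, Ccr2 in 4 of 5, Fos in 2 of 6 (highest adjusted p = 0.0926) and Rgs2 in 1 of 6 (0.0685, edgeR). The count of calls was 68 without T barcodes that also met the tubule marker set, 36 without the second warm fresh library and 75, 49 and 58 without the first, second and the third cryopreserved libraries.

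The storage response differed between cold and warm T barcodes in 8 of 1457 genes (0.549%, edgeR interaction), all with a lower log2 fold change in warm than in cold T barcodes. They were Fos (interaction, edgeR, adjusted p = 2.98e-06), Dusp1 (6.96e-06), Jun (2.08e-05), Junb (3.63e-05), Fosb (0.000212), Ppp1r15a (0.00105), Hspa1a (0.00675) and Egr1 (0.00799). Junb, which had UMIs in every library, went from 50.9 to 191 CPM in cold fresh to 1034 to 1519 CPM in cold cryopreserved T barcodes, and from 3230 to 6855 CPM in warm fresh to 3561 to 4352 CPM in warm cryopreserved T barcodes. In warm T barcodes the log2 fold change of cryopreserved against fresh was 0.45 (Jun) to 1.66 (Fosb) for 5 of the 8 genes, of which Fos and Fosb were called, and -0.47 for Hspa1a, -0.34 for Dusp1 and -0.21 for Junb. The level of Junb in warm T barcodes before storage was thus above its level in cold T barcodes after storage. Fosb was listed at 0 in all cold fresh libraries and Fos and Egr1 in 1 of them. With only genes listed above 0 in every library the count was 5, Hspa1a, Jun, Dusp1, Ppp1r15a and Junb. All 8 genes stayed called in each fit that left out 1 library, and the count was 15 without the second warm fresh library and 13 without T barcodes that also met the tubule marker set.

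Warm and cold dissociation still differed after cryopreservation, with 7 of 14 immediate-early genes, 6 of 11 feedback regulators, 3 of 12 cytotoxic and effector genes, 2 of 4 genes of the NF-kB pathway and 1 of 11 heat shock genes called higher in warm T barcodes. Of 1457 genes 40 were higher and 4 lower in warm cryopreserved T barcodes (3.02% called, 2.75% higher, median log2 fold change -0.09). Tnfaip3 was at 571, 553 and 539 CPM in warm and 41.3, 52.7 and 33.3 CPM in cold T barcodes (log2 fold change 3.60, standard error 0.36, adjusted p = 1.86e-06). Ccl3 was at 487, 189 and 259 against 10.3, 13.2 and 11.1 CPM (4.52, standard error 1.08, adjusted p = 0.0256) and Ccl4 at 1377, 247 and 1088 against 72.3, 72.4 and 77.8 CPM (3.57, standard error 0.96, adjusted p = 0.0482). Xcl1, a chemokine of activated CD8 T and NK cells, was at 1243, 1019 and 529 against 413, 98.8 and 133 CPM, and Cd28 at 857, 1019 and 699 against 258, 198 and 222 CPM (1.92, standard error 0.26, adjusted p = 0.000228). No cold library reached a warm one for these genes. Vps37b (3.57), Dusp10 (3.60), Crem (3.20), Bhlhe40 (2.66), Nr4a2 (2.65), Rgs2 (2.63), Nr4a1 (2.59), Rgs1 (2.58), Klf6 (2.43), Junb (1.72), Nfkbia (1.42), Klf2 (1.38), Dusp1 (1.37) and Jund (1.30) were higher as well, on the log2 scale. Of 15 stress genes 5 were called (median 0.94), and Hspa8 was the heat shock gene called (0.98). Hspa1a, at 277 to 1890 CPM in cold cryopreserved T barcodes, was not called. Apobec3 (-2.01), Tmem59 (-1.66), Arpc5l (-1.45) and Psmb10 (-1.42) were lower, and DESeq2 called no gene lower. With RLE size factors Apobec3, Arpc5l and Psmb10 were not called either. Among the higher genes, Ccl4 and Rgs1 were not called in DESeq2, Klf2 not with at least 3 of the rule's genes and Hspa8 not without a filter on low counts.

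The comparisons of warm with cold T barcodes fresh and after cryopreservation share no library, although the libraries are aliquots of the same suspensions. Both come from 1 fit with a shared filter and a shared estimate of the spread, so that they are not independent. Of the 56 genes higher in fresh warm T barcodes 27 were also higher in warm cryopreserved T barcodes, and these are 27 of the 40 called there. Of 24 called genes named for the cryopreserved comparison 13 lost the call in at least 1 of 6 fits without 1 library, Hspa8 and Arpc5l in all 6 and Ccl3, Ccl4, Klf2, Nr4a2, Rgs1, Apobec3 and Psmb10 in 5 (highest adjusted p 0.0996 to 0.206, edgeR). Tmem59 lost it in 4 fits and Nr4a1 in 3, Xcl1 without the second cold library (0.0565) and Crem without the third warm library (0.0553). The count of calls was 22, 20 and 26 without the first, second and the third cold cryopreserved libraries and 25 and 19 without the second and the third warm ones.

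**Figure D3:**
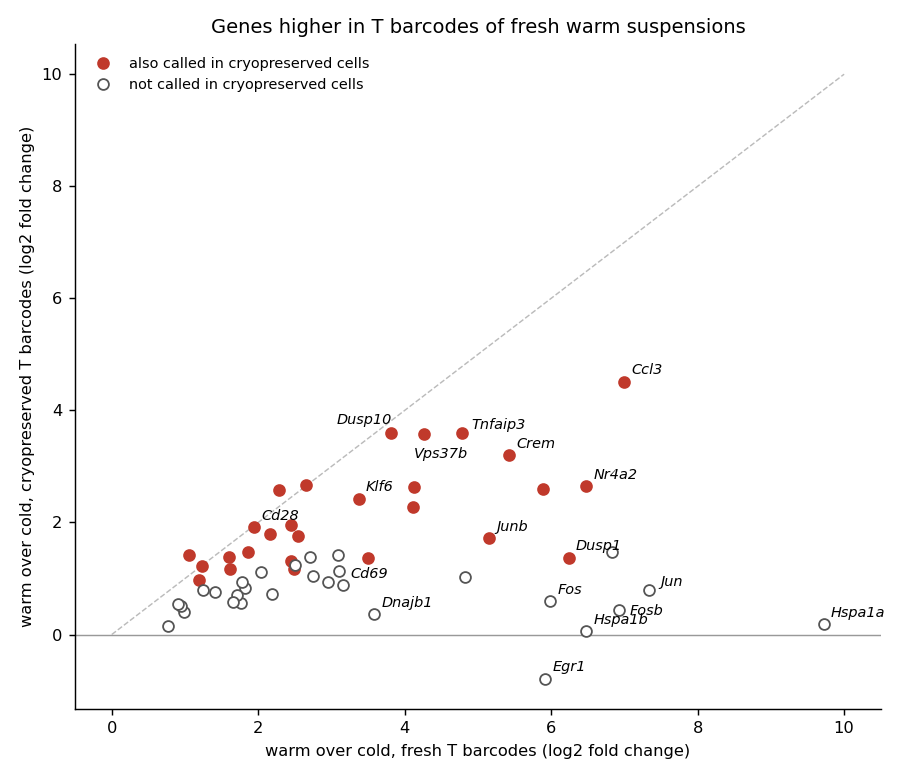
Log2 fold change of warm against cold T barcodes in cryopreserved libraries (vertical) against that in fresh libraries (horizontal), for the 56 genes called higher in fresh warm T barcodes. Filled points are the 27 genes also called higher in cryopreserved T barcodes, and the dashed line marks equal values. Fitted values of genes with 0 or 1 UMI in cold fresh T barcodes, such as Hspa1a and Jun, have no fixed size.

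Methanol fixation of cold-dissociated cells went with a lower level of Malat1 and higher levels of hemoglobin and tubule transcripts, while of 14 receptor and signalling genes Ptprc, Cd2, Cd27 and Cd28 and of 9 lineage transcription factors Ets1, Bcl11b, Tcf7 and Runx3 were called lower. Cd28 and Tcf7 were listed at 0 in all fixed libraries and Runx3 in 2 of 3, so that a lower level is not shown for these genes. Of 1457 genes 74 were higher and 141 lower than in fresh T barcodes (14.8% called, 5.08% higher and 9.68% lower, median log2 fold change -0.07). With only the libraries of these groups in the fit the balance turned, to 115 higher and 77 lower of 812 genes (median 0.10). Malat1, a nuclear noncoding RNA, was at 9883, 8056 and 4966 CPM in fixed and 38799, 45644 and 51008 CPM in fresh T barcodes (log2 fold change -2.83, standard error 0.25, adjusted p = 1.47e-07). AY036118 and Gm10076, of the same list of 4 transcripts, were higher, but AY036118 overlaps ribosomal RNA and Gm10076 resembles a ribosomal protein gene. No receptor or signalling gene was higher (median -0.96, -0.33 with genes at 0 at their bound). Ptprc was at 202, 176 and 366 CPM in fixed and 747, 454 and 522 CPM in fresh T barcodes (log2 fold change -1.37, standard error 0.33, adjusted p = 0.0125), Cd2 at 67.2, 191 and 163 against 339.6, 311 and 280.4 CPM, and Cd27, a costimulatory receptor of the TNF receptor family, at 101, 88.0 and 81.4 against 272, 175 and 241 CPM. Cd28 was at 255, 183 and 117 CPM fresh. Among the lineage factors, Ets1 was at 101, 73.4 and 20.4 CPM in fixed and 289, 239 and 148 CPM in fresh T barcodes (log2 fold change -2.0, standard error 0.43, adjusted p = 0.0079), and Bcl11b, which commits cells to the T lineage, had a ratio of fixed to fresh of 0.108 (95% counting interval 0.0217 to 0.332). Il7r was listed at 0 in all fixed libraries as well. Of 12 class I antigen presentation genes 4 were lower, Tap1 with a ratio of 0.0644 (95% counting interval 0.00160 to 0.385), H2-Q7 at 369.8, 352 and 183 against 730.1, 566 and 421 CPM, and H2-K1 and H2-D1 at a log2 fold change of -0.81 each with groups that overlapped. Btg1 was lower as well (-2.38).

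All 4 hemoglobin genes and 9 of 20 tubule transcripts were called higher in methanol-fixed T barcodes (medians 1.58 and 1.40 on the log2 scale). Hbb-bs was at 7967, 14542 and 13004 CPM in fixed and 2122, 3165 and 4682 CPM in fresh T barcodes (log2 fold change 1.60, standard error 0.42, adjusted p = 0.019), and Gpx3 at 9479, 8995 and 14938 against 2021, 2432 and 4658 CPM (1.64, standard error 0.34, adjusted p = 0.00557). Kap was at 7899, 2333 and 3602 against 475, 933 and 1122 CPM, while Miox, at 1311, 734 and 1750.2 against 289, 415 and 561 CPM, was not called (adjusted p = 0.0565, edgeR). Summed tubule transcripts took 2.31 to 3.83% and hemoglobin 1.72 to 2.95% of the UMIs of fixed T barcodes, above the 0.526 to 1.33% and 0.336 to 0.982% of fresh T barcodes. The part of these shares in the lower calls of T cell genes was not tested. AY036118, a transcript that overlaps ribosomal RNA, was at 471, 572 and 855 CPM in fixed and 17, 7.97 and 7.79 CPM in fresh T barcodes, a ratio of 67.3 (95% counting interval 22.4 to 332), and Gm10076 was higher (1.36). Immediate-early genes stayed low in fixed cold T barcodes, at 0.096 to 0.139% of UMIs against 0.085 to 0.154% fresh. Of 21 called genes named here 10 stayed called in each fit without 1 library. Hbb-bs, Kap, H2-K1 and H2-D1 lost the call in 4 of 6 fits each and Tcf7 and Il7r in 4 of 5. DESeq2 did not call Cd2, Cd27, Runx3, Hbb-bs, Kap and H2-D1, nor was H2-D1 called with RLE size factors or with only the libraries of these groups. Without a filter on low counts Cd2, Runx3, H2-K1 and H2-D1 were not called. With at least 3 of the rule's genes Cd27, Tcf7, Il7r and Hba-a1 were not, and Kap was not without the tubule-marked barcodes. Cd27 was called in none of the 6 fits without 1 library (highest adjusted p = 0.113), Cd2 in 1 of them (highest 0.110) and Ptprc in all but the fit without the second fixed library (adjusted p = 0.0619, edgeR). The count of calls was 84 without the second cold fresh library, 103 without the first, 128, 115 and 102 without the methanol-fixed libraries in turn, and 135 in DESeq2.

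**Figure D4:**
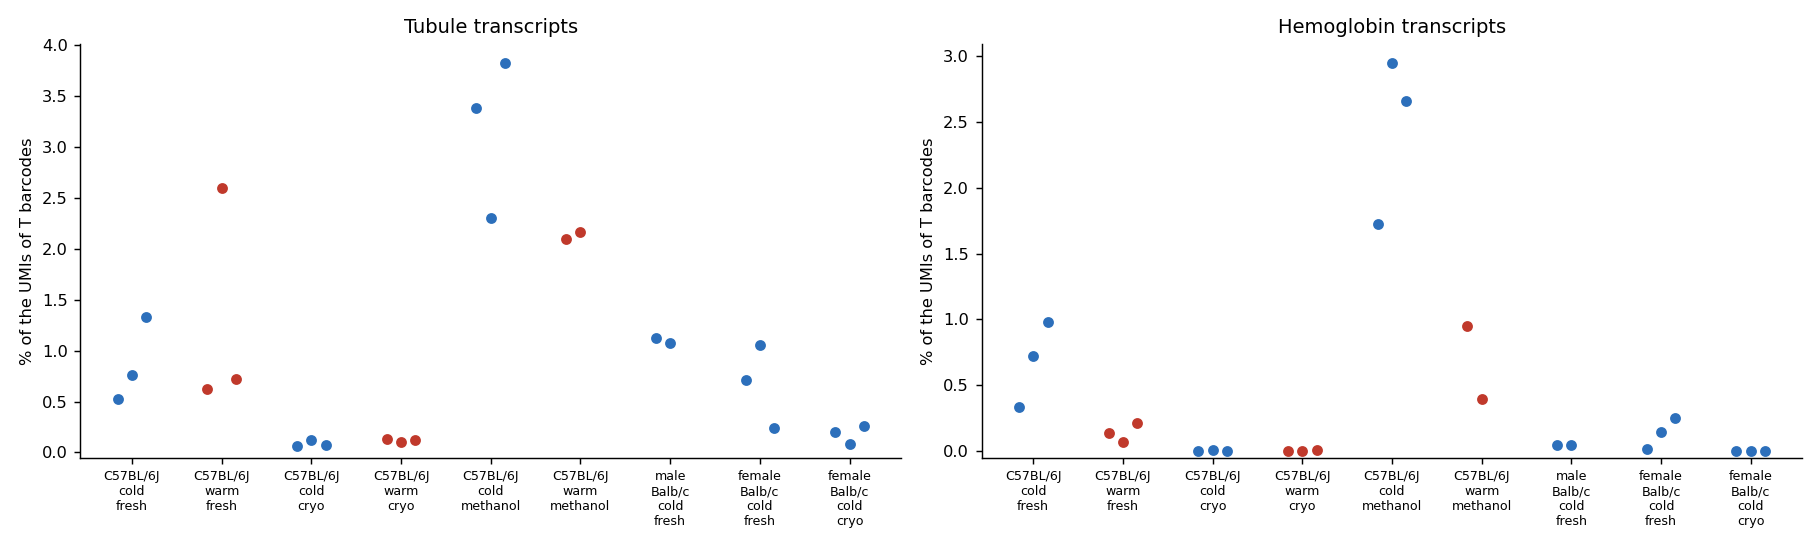
Share of the UMIs of T barcodes (%) taken by 20 tubule transcripts and by 4 hemoglobin genes in each library, by group. Tubule transcripts lie at 2.31 to 3.83% in cold methanol-fixed, 0.526 to 1.33% in cold fresh and 0.068 to 0.123% in cold cryopreserved T barcodes.

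In warm-dissociated cells 5 genes were higher and 9 lower after methanol fixation (0.961% of 1457 called, 0.618% lower), over 2 fixed libraries with 37 T barcodes. Malat1 was at 6373 and 11801 CPM in fixed and 42234, 45098 and 44203 CPM in fresh T barcodes (log2 fold change -2.39, standard error 0.29, adjusted p = 3.47e-05), and AY036118 had a ratio of fixed to fresh of 97.2 (95% counting interval 31.4 to 487). Gm10076 was higher (2.21) and Btg1 (-2.52), Btg2 (-2.53) and Actb (-1.71) were lower on the log2 scale. Klf13, a zinc finger factor, was at least 2.52-fold lower. Cd28, at 857, 598 and 799 CPM in fresh warm T barcodes, was listed at 0 in both fixed libraries. Gzma, a protease of cytotoxic granules, was at 603 and 959 CPM in fixed and 0, 7.67 and 0 CPM in fresh T barcodes, 2 of which list it at 0. It took the other sign (-1.75) when at least 3 of the rule's genes were asked for, where the first fixed library fell under the minimum of 10 T barcodes and 1 fixed library with 10 of them was left. The count of calls was 78 without T barcodes that also met the tubule marker set, 80 without the second warm fresh library, 7 without the first and 5 without the first methanol-fixed library. Actb, Btg2, Gzma and Klf13 lost their call in 2 to 4 of 5 fits without 1 library.

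Part of the warm stress profile was still present in methanol-fixed T barcodes. Of 1457 genes 23 were higher and 2 lower in warm than in cold fixed T barcodes (1.72% called, 1.58% higher, median log2 fold change -0.06). Junb was at 3187 and 4797 CPM in the 2 warm libraries and 168, 161 and 163 CPM in the 3 cold ones (log2 fold change 4.57, standard error 0.39, adjusted p = 1.06e-07), and Dusp1 at 1119.6 and 1855 against 0, 29.3 and 61.1 CPM (5.39, standard error 0.45, adjusted p = 1.06e-07). Klf2 was at 3789.5 and 1791 against 437, 411 and 427 CPM, Klf6 at 775 and 512 against 33.6, 58.7 and 40.7 CPM and Vps37b at 1206 and 576 against 33.6, 14.7 and 40.7 CPM. The warm libraries lay above all cold ones for each of these. Fos, at 1119.6 and 768 CPM in warm T barcodes, had no UMI in cold ones and was listed at 0 in 1 of them. Nr4a1 was at least 12.6-fold higher, Ppp1r15a had a ratio of warm to cold of 75.4 (95% counting interval 12.2 to 3113) and Jun one of 54.9 (95% counting interval 8.52 to 2301). Ccl4 at 4134 and 736 against 0, 58.7 and 0 CPM and Ccr7 at 345 and 352 against 0, 58.7 and 0 CPM were also called. The 2 warm libraries held 12 and 25 T barcodes, at means of 968 and 1251 UMIs per barcode. Low CPM values there rest on few UMIs. Of 15 stress genes 7 were higher (median 2.50, 2.39 with genes at 0 at their bound) and of 14 immediate-early genes 8. Of the heat shock genes called in fresh warm T barcodes only Hspa8 was called here (log2 fold change 1.25, adjusted p = 0.0425, edgeR). It was not called with RLE size factors or without a filter on low counts. Hspa1a and Dnajb1 (adjusted p = 0.07 each, edgeR), Hspa1b, Hsp90aa1, Dnaja1 and Hsp90ab1 were not called, nor were Fosb and Egr1. Hba-a1 (-2.47) and Med28, a subunit of Mediator (-1.87), were lower. Of the 56 genes higher in fresh warm T barcodes 19 were among the 23 called here. These 2 comparisons share no library, but their libraries are aliquots of the same suspensions. Both also come from 1 fit with a shared filter and a shared estimate of the spread, so that they are not independent. Of 16 called genes named here Ccl4, Ccr7, Hba-a1, Hspa8, Jun, Klf2, Med28 and Nr4a1 lost the call in at least 1 fit without 1 library. The count was 11 without the first and 15 without the second warm library, and 3 where at least 3 of the rule's genes were asked for, which left 1 warm library with 10 T barcodes, since the first held 5.

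In female Balb/c T barcodes cryopreservation went with higher mitochondrial transcripts and lower tubule transcripts, and 1 of 7 stress genes was called. Of 1293 genes 12 were higher and 9 lower (1.62% called, 0.928% higher, median log2 fold change 0.03). mt-Co1, a subunit of complex IV, was at 46072, 43413 and 45239 CPM in cryopreserved and 27686, 28442 and 20192 CPM in fresh T barcodes (log2 fold change 1.15, standard error 0.19, adjusted p = 0.00804). mt-Atp8 was at 949, 590.4 and 499 against 135, 206 and 141 CPM (2.41, standard error 0.32, adjusted p = 0.00228) and mt-Nd5 at 4551, 3591 and 3434 against 1672, 1679 and 1335 CPM (1.64, standard error 0.21, adjusted p = 0.00228). mt-Atp6 (1.20) and mt-Co3 (1.01) were higher as well, and no value of a fresh library reached a cryopreserved one. The median mitochondrial share of a T barcode was 20.4 to 23.3% fresh and 37.7 to 39.8% cryopreserved, while over all barcodes of these libraries it was 35.7 to 36.5% in both groups. In cold-dissociated C57BL/6J T barcodes it was 10.6, 22.4 and 25.3% fresh and 15.1, 10.2 and 10.2% cryopreserved, with overlapping groups and a lower mean after cryopreservation. Junb was the 1 of 7 tested stress genes that was called, at 283, 253 and 245 CPM in cryopreserved and 98.9, 119 and 157 CPM in fresh T barcodes (log2 fold change 1.39, standard error 0.28, adjusted p = 0.0215), and summed immediate-early genes took 0.159 to 0.239% and 0.132 to 0.160% of UMIs. In cold-dissociated C57BL/6J T barcodes these shares were 0.596 to 0.686% cryopreserved and 0.085 to 0.154% fresh. The 2 experiments differ in strain, sex, age, chemistry, storage time and centrifugation before freezing and after thawing, which cannot be told apart.

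Gm42418, a transcript that overlaps ribosomal RNA, was higher in cryopreserved female T barcodes (1.01) and Ftl1, the ferritin light chain, lower (649, 663 and 673 against 1987, 2495 and 1397 CPM). Of 9 tested tubule transcripts 5 were lower, among them Gpx3 at 341, 217 and 183 against 1339, 2117 and 714 CPM, Miox at 33.3, 60.2 and 10.2 against 548, 1241 and 141 CPM, Gatm (-2.35) and Fbp1. S100g, a calcium-binding protein of the tubule, was lower too (-3.43). Without the 5 T barcodes that also met the tubule marker set, all of them fresh, 13 genes were higher and 3 lower, and Gpx3, Gatm and Ftl1 were not called. All 13 called genes named for female Balb/c lost their call in at least 1 of 6 fits without 1 library. Junb lost it in 5 of them and in DESeq2 (adjusted p up to 0.209). Gatm, Ftl1, Fbp1 and S100g lost it in 5 of the 6 fits, S100g also with at least 3 of the rule's genes, and mt-Co3 lost it without a filter on low counts. Without the first fresh library no gene was called, without the second 13 and without the third 64 were, and without each cryopreserved library in turn 9, 9 and 11 were. Each of the 5 mitochondrial genes lost its call without the first fresh library alone (adjusted p = 0.0693 to 0.196, edgeR).

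**Figure D5:**
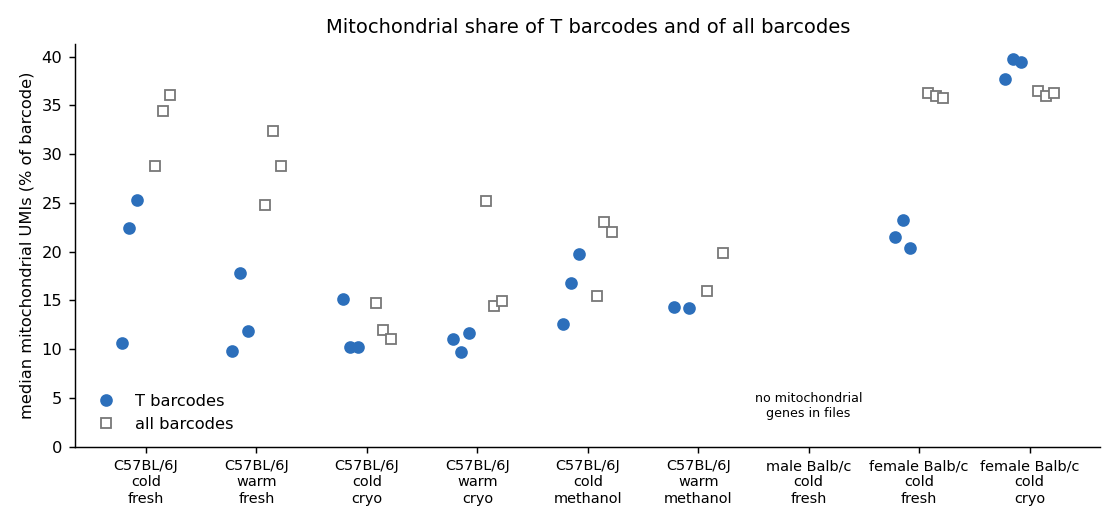
Median share of mitochondrial UMIs (%) per barcode in each library that lists mitochondrial genes, for T barcodes (dots) and for all barcodes (squares). In female Balb/c the T barcodes lie at 20.4 to 23.3% fresh and 37.7 to 39.8% cryopreserved, and all barcodes at 35.7 to 36.5% in both.

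Male Balb/c and C57BL/6J T barcodes, both cold-dissociated, fresh and of chemistry version 2, differed in 28 of 896 genes (9 higher and 19 lower in Balb/c, 3.12% called, median log2 fold change -0.03). Only 2 Balb/c libraries with 95 shallow T barcodes entered, and their files list no mitochondrial gene, so that their CPM refer to the other transcripts and the test to the genes listed for both. Ly6a, which encodes the strain-dependent antigen Sca-1, was at 0 and 47.4 CPM in Balb/c and 713, 470.4 and 405 CPM in C57BL/6J T barcodes (adjusted p = 0.00258), and Ly6e at 129.5 and 0 against 1409, 853 and 841 CPM (adjusted p = 0.000957, edgeR). Ly6c2 was at 302 and 379 against 1239.5, 598 and 693 CPM (log2 fold change -1.70, standard error 0.39, adjusted p = 0.0295). The groups were apart for all 3 of these Ly6 genes. Apobec3, a restriction factor against retroviruses, had 0 UMIs in Balb/c T barcodes and was at least 3.63-fold lower. Ctsw, a protease of cytotoxic lymphocytes, was listed at 0 in both Balb/c libraries and at 475, 215 and 249 CPM in C57BL/6J. B2m, the light chain of class I molecules, was at 2417 and 2085 against 4364, 2846 and 2539.5 CPM (-0.95, standard error 0.21, adjusted p = 0.0259), and Malat1 (-1.15) was lower. Klf2 was at 2029 and 2275 CPM in Balb/c and 492, 614 and 265 CPM in C57BL/6J T barcodes (1.79, standard error 0.32, adjusted p = 0.0068). Gm10260 and Gm10709, which resemble ribosomal protein genes and can share their reads, were at 2806 and 3554 and 820.2 and 711 CPM in Balb/c against at most 17 and 7.97 CPM. All 4 hemoglobin genes were lower, Hba-a2 at least 22.7-fold, and Klk1, a kallikrein of the tubule, was higher through 1 library (2935 and 332 CPM). B2m, Klf2, Klk1, Ly6c2, Malat1 and Hbb-bt lost their call in at least 1 fit without 1 library (highest adjusted p 0.0557 to 0.766). With at least 3 of the rule's genes Hba-a1 (adjusted p = 0.102), Hba-a2 (0.106), Hbb-bt (0.260) and Ctsw (0.0558, edgeR) were not called, and neither were Klf2, Ly6c2, Malat1 and Klk1. DESeq2 did not call B2m, Hbb-bt, Klk1 and Ly6c2, and the count of calls was 45 without the third C57BL/6J library.

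T barcodes with a UMI of Cd8a or Cd8b1 were compared with the other T barcodes of the same library, in 12 libraries with 195 and 641 such barcodes. This comparison was added after the data were seen. Ccl5, Ccl4 and Nkg7 were higher in the CD8-detected barcodes, and Itgb1, Id2 and Cxcr6 were lower. Of 640 genes 60 were higher and 49 lower (17% called, 9.38% higher and 7.66% lower), and the 60 include the genes that set the groups. With RLE size factors the split was 82 and 24 and with DESeq2 78 and 14, and the median log2 fold change over all genes was -0.13 in the first fit. Of 8 cytotoxic and effector genes 5 were higher, among them Cd8a and Cd8b1 themselves, of 3 naive and recirculating genes 2 were higher, and of 9 effector memory and resident genes 2 were lower. Ccl5 had a mean of 8931 CPM in CD8-detected and 2512 CPM in other T barcodes and was higher in 11 of 12 libraries (log2 fold change 1.69, standard error 0.19, adjusted p = 2.02e-07). Ccl4 was higher in 10 of 12 (2.1, standard error 0.50, adjusted p = 0.00476) and Nkg7 in 11 of 12 libraries (0.84, standard error 0.17, adjusted p = 0.00123). Dapl1, a gene of naive CD8 T cells, was higher in 8 of 12 (2.22, standard error 0.40, adjusted p = 0.00064), Klf2 in 11 and Lef1, a factor of naive T cells, in 10. Itgb1, an integrin chain of memory and effector cells, was lower in all 12 libraries (-1.46, standard error 0.29, adjusted p = 0.00136) and Id2, a factor of innate-like and effector lymphocytes, in 11 (-0.88, standard error 0.14, adjusted p = 8.74e-05). Cxcr6, a receptor of resident T and NKT cells (-0.89), Ly6a (-1.27) and Cd28 (-0.64) were lower on the log2 scale. A barcode without a CD8 UMI can still be a CD8 T cell, since detection depends on depth, and 6 of 13 tested tubule transcripts were lower in CD8-detected barcodes, whose part in these results was not tested. Lef1 and Cd28 lost their call in 4 of 9 and 5 of 12 fits without 1 library, Cd28 also with RLE size factors and in DESeq2. Without a filter on low counts Lef1 (adjusted p = 0.694) and Klf2 (0.116, edgeR) were not called, and the count of calls was 71 without the second warm fresh library.

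In bulk libraries of female Balb/c kidneys, cold suspensions were compared with the intact kidney, and 8 of 16 receptor and signalling genes were called higher in the suspensions. Of 16538 genes 1308 were higher and 2005 lower in suspensions (20.0% called, 7.91% higher, median log2 fold change 0.00). No receptor or signalling gene was lower (median 0.92), and of 9 cytotoxic and effector genes 7 were higher (median 1.09). Cd3g was at 1.23, 1.29 and 0.761 CPM in suspensions and 0.354, 0.234 and 0.412 CPM in intact kidneys (log2 fold change 1.69, standard error 0.32, adjusted p = 0.00495), and Cd3d at 0.500, 0.646 and 0.761 against 0.225, 0.401 and 0.206 CPM (1.18, standard error 0.35, adjusted p = 0.04). Trbc2 was higher (1.18), Cd3e was not called (0.99, standard error 0.33, adjusted p = 0.0662) and Trac lay at 3.0, 3.42 and 4.52 against 3.28, 3.85 and 4.78 CPM with overlapping groups (-0.13, standard error 0.19, adjusted p = 0.699), a value that turned to 0.012 without the third intact kidney. Cd2 (1.62), Cd6 (1.71), Trbc1 (1.05), Lck (0.79) and Thy1 (0.78) were higher on the log2 scale, as were Cd8a (0.78), Il7r (1.69), Nkg7 (1.54), Gzma (1.47) and Ccl5 (0.75). Levels were low, 0.096 to 4.78 CPM for all of these. Of 10 B cell markers 9 and of 10 macrophage markers 8 were higher too, and all 8 endothelial markers were lower. Of 13 called genes named here 10 lost the call in at least 1 of 6 fits without 1 library, and Cd3g, Cd2 and Cd6 kept it in all 6. DESeq2 did not call Cd3d, Trbc1 and Ccl5.

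Nuclei gave almost no T cells by the same rule. Of 98303 barcodes in 12 libraries of nuclei from male and female Balb/c kidneys 4 met it, 1 in a male and 3 in female libraries. The kidneys were flash-frozen. Male nuclei (chemistry version 2) were sorted, and female nuclei (chemistry version 3) were sorted after different washes or cleaned on a sucrose cushion. The authors also counted intronic reads and set a minimum of UMIs for nuclei, so that nuclei and cells were not prepared alike. Each of the 12 libraries had 1 to 5 of the rule's genes listed at 0 or not listed, which limits what the rule can find. The genes of these 4 barcodes were not tested.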

How the data were processed

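The authors sequenced single cells on the 10x platform and deposited tables of UMI counts per gene and barcode, and read counts per gene for the bulk libraries. Per the labels, the reads were processed with Cell Ranger 2.1.1 and Seurat 2 and, for bulk, with STAR 2.6.1a and featureCounts, on GRCm38/mm10. The authors called barcodes with EmptyDrops, left out genes found in fewer than 10 barcodes of a library and filtered barcodes as well, and the male Balb/c tables list no mitochondrial genes. T barcodes were chosen by the rule given above. The members and gene lists were chosen with earlier results of these data known.

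UMI counts were summed over the T barcodes of each library with at least 10 of them and compared by quasi-likelihood F tests in edgeR (version 4.0.16, R 4.3.3, TMM, filterByExpr), with 1 fit over the C57BL/6J groups and a fit of their own for female Balb/c, male Balb/c against C57BL/6J, T against B and CD8-detected barcodes. Bulk counts were tested in the same way. P-values were adjusted by Benjamini-Hochberg over all genes of a fit, and a gene was called at an adjusted p under 0.05. The standard error is the log2 fold change divided by the square root of F, an approximation that can be too small with few counts. Levels are CPM, computed from the deposited counts. Shares were compared by exact permutation of libraries, and intervals are 95% Wilson intervals. Intervals and floors (3 UMIs over a group) cover counting error only. Libraries of a group came from different mice. Preserved libraries were aliquots of the fresh suspensions. The barcode labels of C57BL/6J libraries with equal replicate numbers share a number, which set the replicate block. That this number marks the same suspension or mouse is not given in the sources used here. The main fits and the permutation tests did not use it. No doublet caller was run. Alternatives were RLE size factors, DESeq2 1.42.0, no filter on low counts, only the groups compared, at least 3 of the rule's genes, thinning to 500 UMIs and leaving out each library, and, chosen after seeing the data, only genes listed above 0, no T barcodes in the tubule gate, the replicate block and the upper bounds. The scripts were tested on simulated data with known changes. In simulated counts for warm against cold fresh, 86.9% of 4-fold and 35.3% of 2-fold changes were called. A gene that was not called can therefore have changed. Named genes were the 6 called genes with the largest change in each direction and up to 3 members of each list with the smallest p, with all of the study's stress genes and a fixed set of T cell genes. Named after their values were seen were Dnajb1, Ier5, Nr4a1, Nr4a2, Klf6, Crem, Dusp2, Dusp5, Dusp10, Zfp36, Zfp36l2, Ppp1r15a, Vps37b, Pfn1, Kap, Miox, mt-Atp6, mt-Atp8, mt-Co3, Ndufb8, Cd27, H2-D1, Ly6c2, Gm42418, Ftl1, Lck, Thy1, Cd2, Cd6, Cd74, H2-Ab1, Apoe, Klrb1c and Gzmb, and, in single comparisons, Junb, Atf3 and Actb. Some genes that the rule or these lists take are not reported here. Promoter sequences are from RefSeq. Analyses used Python 3.11.15, NumPy 2.4.6, SciPy 1.17.1, pandas 2.3.3 and matplotlib 3.10.9.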

Additional observations from a re-analysis of the deposited data

Results flagged for a closer look

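The response to cryopreservation differed between warm and cold T barcodes in 8 genes, by the interaction test of edgeR across 1457 genes. The difference of the log2 fold changes, warm minus cold, was -5.38 for Fos (adjusted p = 2.98e-06), -4.87 for Dusp1 (6.96e-06), -6.54 for Jun (2.08e-05), -3.43 for Junb (3.63e-05), -6.49 for Fosb (0.000212), -3.80 for Ppp1r15a (0.00105), -9.54 for Hspa1a (0.00675) and -6.71 for Egr1 (0.00799). Cold fresh T barcodes had no or few UMIs of most of these genes, so that the fitted sizes depend on the prior count and are no bounds.

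Barcodes that meet the T cell rule were also found in the libraries of nuclei, which entered no comparison. They numbered 4 of 98303.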

How the results depend on the processing

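Of 2857 alternative values for 221 named genes and comparisons, 2397 kept direction and side of the threshold and 451 kept the direction but lost the call. A few others kept the direction and gained a call. In 2 results the direction turned: Gzma in methanol-fixed against fresh warm T barcodes (-1.75 on the log2 scale with at least 3 of the rule's genes, which left 1 fixed library) and Trac in bulk suspensions (main value -0.13, -0.31 without the third suspension and 0.012 without the third intact kidney). Where counts of called genes moved by over 1.5 times, the cause was not tested unless the setting itself changed the genes or libraries tested. With only the libraries of the 2 groups, 42 genes were called for warm against cold fresh, 45 for cryopreserved against fresh warm, 8 for methanol-fixed against fresh warm and 79 for warm against cold cryopreserved T barcodes. With no filter on low counts, 41 were called for methanol-fixed against fresh warm, 101 for female Balb/c, 65 for male Balb/c, 18 for the interaction of storage and dissociation, 5 for T against B, 282 for CD8-detected and 1912 for bulk warm against cold. With at least 3 of the rule's genes, 66 were called for cryopreserved against fresh warm and 3 for warm against cold methanol-fixed T barcodes, the latter with 1 warm library left. Without T barcodes in the tubule gate there were 68 for cryopreserved and 78 for methanol-fixed against fresh warm, and 13 for the interaction, which gave 5 with only genes listed above 0. DESeq2 called 135 and 23 genes for methanol-fixed against fresh in cold and warm T barcodes.

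Leaving out 1 library gave 44 to 74 calls for warm against cold fresh, 55 to 132 and 36 to 156 for cryopreserved against fresh (cold and warm), 84 to 186 and 5 to 80 for methanol-fixed against fresh, 19 to 32 and 11 to 22 for warm against cold after each storage, 0 to 64 for female Balb/c, 24 to 45 for male Balb/c, 8 to 15 for the interaction, 71 to 154 for CD8-detected, 776 to 924 for bulk warm against cold and 2385 to 3086 for bulk suspensions, and 0 throughout for T against B. Differences in the share of T barcodes ranged from -0.820 to -0.316 points for warm against cold fresh, 4.91 to 5.42 and 3.68 to 5.52 for cryopreserved against fresh, -0.851 to -0.347 and -0.682 to -0.268 for methanol-fixed against fresh, -2.05 to -0.216 and -0.650 to -0.237 for warm against cold after each storage, 1.99 to 2.05 for female Balb/c and -0.951 to 0.184 for male Balb/c. Among immune barcodes they ranged from -0.193 to 3.35 (cold), 4.19 to 9.49 (warm) and -0.177 to 3.03 points (female Balb/c). At the upper bound of libraries at 0 the difference was 0.406 points for methanol-fixed against fresh warm and 0.437 points for warm against cold methanol-fixed. The CD8 share difference of female Balb/c was 2.76 points with at least 3 of the rule's genes, 3.15 thinned, 10.2 with Cd8b1 alone, and -8.18 to 12.7 without 1 library.

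The replicate numbers were tried as a block, chosen after seeing the data. With the replicate block 66 genes were called for warm against cold fresh, 127 and 129 for cryopreserved against fresh, 234 and 20 for methanol-fixed against fresh, 39 and 29 for warm against cold after each storage and 10 for the interaction, none beyond 1.5 times. Of the named genes, Cd27 in methanol-fixed against fresh cold and Ccl4, Arpc5l and Psmb10 in warm against cold cryopreserved T barcodes were not called with it. The deviations of same-numbered libraries correlated at a mean r of 0.026 (-0.279 to 0.306, 40 pairs) and those of other pairs at -0.013 (80). Levels were centred within each group, which ties the second mean to the first, so that their contrast cannot decide on pairing. The CD8 share in C57BL/6J, the comparison of CD8 with CD4 barcodes and that of T with NK barcodes were not run, because too few barcodes or genes were listed.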
